A study of Mus musculus with 14 samples.

Results

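The genes described here were 40 listed genes of mitosis and of the mitotic spindle. They were measured in GFP-positive cells of the embryonic mouse cortex, on oligonucleotide arrays that read transcript levels through sets of short probes. A probe set was taken if the platform annotation paired it with exactly 1 of the listed symbols, and where a gene had several, the one with the highest mean over the 14 arrays stood for it. A probe set was found in this way for 39 of the 40 genes, and Ccnb1, which encodes cyclin B1, was not analysed here. All 39 lay above the dim level (a log2 value of 4 in at least 3 of the 14 arrays) and were among the 10295 genes tested, of 18193 genes with a probe set. All cells came from CD1 embryos that received DNA at E14.5 by in utero electroporation, in which electric pulses drive DNA from the brain ventricle into the cells that line it, so the controls were electroporated too. The vector was either Fezf2GFP, which carries the transcription factor Fezf2 with GFP, or CtrlGFP, and the cells were purified by fluorescence-activated sorting 24 h or 48 h later. At 48 h each vector had 4 arrays (Fezf2GFP and CtrlGFP), and at 24 h each had 3. The labels name neither the promoter of the vectors nor the animals behind an array. The p-values therefore reflect how far these arrays scatter, which may in part be technical.

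Mitosis starts when the kinase Cdk1, bound to a cyclin, phosphorylates many proteins, after which motor proteins build a bipolar spindle and kinetochores tie each chromosome to its microtubules. The spindle assembly checkpoint holds the cell until all kinetochores are attached, then the anaphase-promoting complex destroys the cyclins, and a central spindle directs the cleavage of the cell. In the embryonic cortex the cells that divide are radial glia at the ventricle and intermediate progenitors above them, while neurons do not divide, and transcripts of mitosis genes are made mainly late in the cycle.

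Within a group, correlations between arrays ran from 0.942 to 0.993 over the genes tested, and array medians of the deposited table from 3.259 to 3.505 (log2). Replicate 1 of CtrlGFP at 24 h and replicate 2 of CtrlGFP at 48 h had the top medians. The probe set of Fezf2 went against the label. It stood at 9.31, 9.50 and 9.52 in the arrays labelled Fezf2GFP at 24 h, against 10.82, 11.54 and 11.54 in those labelled CtrlGFP (log2 difference -1.86, SE 0.38, limma adjusted p = 0.0324), a call that passed in 15 of 23 alternative fits. At 48 h it stood at 10.25, 8.67, 8.93 and 9.48 in the arrays labelled Fezf2GFP, against 10.65, 9.63, 10.44 and 9.87 in those labelled CtrlGFP (log2 difference -0.82, SE 0.33, limma adjusted p = 0.239). The sources used here do not say whether the vector-borne stretch holds these probes, so the directions given for Fezf2GFP against CtrlGFP rest on the labels. Of the markers of the labelled tissue, 9 of 9 of radial glia, 5 of 5 of intermediate progenitors and 8 of 8 of neurons lay above the dim level in at least 3 arrays. So did 6 of 6 interneuron markers and 10295 of all 18193 genes with a probe set, so this alone does not identify the tissue. Of the markers of other cells, 6 of 7 of microglia, 5 of 6 of endothelium and 5 of 5 of meninges lay below the dim level on all 14 arrays, while this held for 0 of 6 of interneurons and 1 of 4 of pericytes. Of 5 red blood cell markers with a probe set, 3 lay below the dim level on all 14 arrays. Hbb-y, an embryonic globin of these cells, stood at 13.78 on CtrlGFP 24 h replicate 1 and at 9.96 on Fezf2GFP 24 h replicate 3, and at 3.04 to 5.78 on the other arrays. Hba-x exceeded a log2 value of 4 only on CtrlGFP 24 h replicate 1, at 5.95, and stood at 2.34 on Fezf2GFP 24 h replicate 3.

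Many genes of the late cell cycle carry CCAAT boxes, which bind the factor NF-Y, and cell cycle homology regions, whose core is TTTGAA or TTTAAA and which are bound by the MuvB complex with the repressive DREAM partners or with Mybl2 and Foxm1. The letters of these motifs were searched on both strands of the RefSeq promoter windows of build GRCm38.p6, each running from 250 bases before to 50 bases after a transcription start. Of the 39 measured genes, 32 had a window. CCAAT was present in 24 of the 32 (75.0%), against 41.1% of the 27025 genes with a window. TTTGAA was present in 26 (81.2%), against 20.2% of all genes, and TTTAAA in 9 (28.1%), against 14.9%. A CCAAT together with a TTTGAA or TTTAAA was found in 23 of the 32 (71.9%), against 12.2% of all genes, and 17 (53.1%) held at least 2 CCAAT, against 13.3%. Matches of the 3 motifs were counted separately, so that overlapping letters could count for more than 1. A match is a description of the letters and not a binding site. The 120 bases before the start are given for 8 genes, 5′ to 3′ on the strand of the gene, with matches in capitals (ATTGG and TTCAAA are the reverse strand of CCAAT and TTTGAA). Cdk1, Ccnb2, Plk1, Cdc20, Top2a and Hmmr were chosen because they held both kinds of motif in the window and fell between the times with both vectors. Kif22 was chosen because it held both and did not pass with its chosen probe set, and Nusap1 because it fell and held none.
Cdk1, chr10:69352913-69353032, minus strand: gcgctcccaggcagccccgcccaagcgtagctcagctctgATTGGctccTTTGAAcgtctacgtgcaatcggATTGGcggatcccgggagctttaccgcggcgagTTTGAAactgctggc
Ccnb2, chr9:70421555-70421674, minus strand: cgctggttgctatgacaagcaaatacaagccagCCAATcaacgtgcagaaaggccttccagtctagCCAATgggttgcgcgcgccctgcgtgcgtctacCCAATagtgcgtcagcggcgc
Plk1, chr7:122159315-122159434, plus strand: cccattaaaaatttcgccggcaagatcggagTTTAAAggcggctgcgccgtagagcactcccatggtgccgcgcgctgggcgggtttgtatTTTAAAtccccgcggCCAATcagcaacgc
Cdc20, chr4:118437344-118437463, minus strand: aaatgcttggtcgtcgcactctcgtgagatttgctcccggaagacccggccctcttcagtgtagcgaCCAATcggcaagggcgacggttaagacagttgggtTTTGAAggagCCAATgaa
Top2a, chr11:99024190-99024309, minus strand: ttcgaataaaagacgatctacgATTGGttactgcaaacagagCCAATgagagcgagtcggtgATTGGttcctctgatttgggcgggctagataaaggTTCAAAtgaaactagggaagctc
Hmmr, chr11:40733438-40733557, minus strand: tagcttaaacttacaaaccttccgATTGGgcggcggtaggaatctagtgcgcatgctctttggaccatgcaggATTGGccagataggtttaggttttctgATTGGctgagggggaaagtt
Kif22, chr7:127042421-127042540, minus strand: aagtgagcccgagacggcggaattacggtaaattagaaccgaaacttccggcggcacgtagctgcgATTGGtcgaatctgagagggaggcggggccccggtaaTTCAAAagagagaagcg
Nusap1, chr2:119618178-119618297, plus strand: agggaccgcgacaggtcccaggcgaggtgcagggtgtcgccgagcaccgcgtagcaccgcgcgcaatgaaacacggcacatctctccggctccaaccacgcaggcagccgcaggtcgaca

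In the Cdk1 window a CCAAT on the reverse strand began at base -48 and a TTTGAA at base -15, counted back from the transcription start. The Cdc20 stretch held a TTTGAA between its CCAAT boxes, at base -18. The TTTGAA of Ccnb2 and Hmmr lay outside the 120 bases shown, and Plk1 held a pair of TTTAAA upstream of its CCAAT. Mad2l1 and Nuf2, like Nusap1, had a window with no match to any of the 3 motifs, and of these 3 genes all fell between 48 h and 24 h with Fezf2GFP, and Nuf2 and Nusap1 also with CtrlGFP. Bub3, Kif22 and Racgap1, which held both kinds of motif, did not pass in either time comparison with the chosen probe set. With the mean over the probe sets of a gene, Kif22 and Racgap1 fell and passed with both vectors, so for them this depends on the probe set.

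Transcripts of mitosis genes were lower at 48 h than at 24 h with both vectors. With Fezf2GFP, 36 of the 39 genes fell and 0 rose (limma, adjusted p below 0.05 over all genes tested), where 5.67% of all genes tested fell and 6.38% rose. With CtrlGFP, 33 of the 39 fell and 0 rose, where 6.69% of all genes tested fell and 5.88% rose. The median log2 difference over the 39 genes was -1.69 with Fezf2GFP and -1.59 with CtrlGFP, beside -0.01 and -0.02 over all genes tested. The falls that passed ran from 2.25-fold (Cdc20) to 5.31-fold (Kif20a) with Fezf2GFP and from 2.25-fold (Cdc20) to 5.04-fold (Hmmr) with CtrlGFP. All 39 genes had a difference below 0 with each vector. In all 39 every Fezf2GFP array at 48 h lay below every Fezf2GFP array at 24 h, which was so for 12.9% of all genes tested, and with CtrlGFP this held for 38 of the 39, against 12.8% of all genes. The 33 genes that fell with CtrlGFP were all among the 36 that fell with Fezf2GFP, so the shared genes made up 91.7% of the Fezf2GFP list and 100% of the CtrlGFP list. The differences of these comparisons use no array in common. Both comparisons took the spread of a gene from the same fit to all 14 arrays, so their calls are linked. With only the compared groups in the fit, 37 of the 39 genes fell with Fezf2GFP and 26 with CtrlGFP. Over all genes tested the 401 genes that fell with both made up 68.7% and 58.2% of the lists. Nearly all of the 39 genes fell with each vector, so their lists had to share most of their members. The shares of the 39 and of all genes are thus not comparable. In sorted bulk samples, fewer dividing cells and less of these transcripts per dividing cell cannot be told apart.

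**Figure D1:**
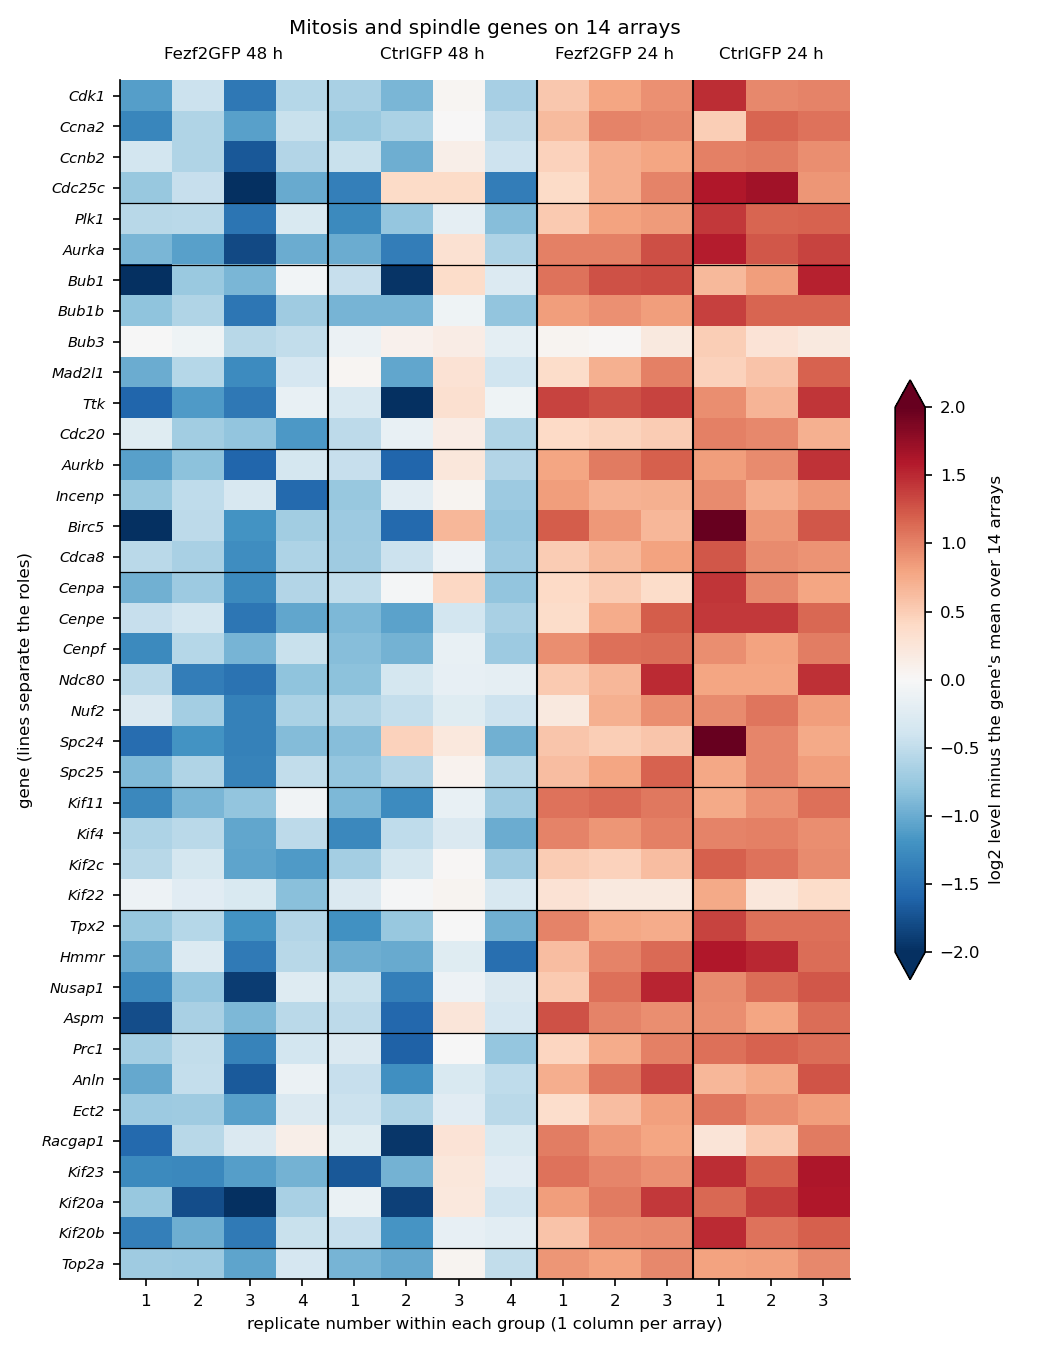
Levels of the 39 mitosis and spindle genes on each array, as log2 level minus the gene's mean over the 14 arrays (colour), with genes in rows by role and arrays in columns by group and replicate number. The 48 h columns of both vectors are blue for most genes and the 24 h columns red, while the third CtrlGFP 48 h array is the palest of its group and Bub3 and Kif22 are pale throughout.

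Cyclins and the kinase they activate fell with both vectors. Of the 4 genes measured, 4 fell with Fezf2GFP (median log2 difference -1.68) and 4 with CtrlGFP (median -1.56). Cdk1, the kinase that drives entry into mitosis, stood at 10.27, 10.94, 9.94 and 10.80 in Fezf2GFP arrays at 48 h, against 11.91, 12.16 and 12.28 at 24 h. In CtrlGFP arrays it stood at 10.71, 10.45, 11.41 and 10.70 at 48 h, against 12.84, 12.33 and 12.36 at 24 h. Neither pair of groups overlapped, and Cdk1 was 3.09-fold lower with Fezf2GFP (log2 difference -1.63, SE 0.27, limma adjusted p = 0.00229) and 3.24-fold lower with CtrlGFP (log2 difference -1.70, SE 0.27, limma adjusted p = 0.00144). Ccna2 encodes cyclin A2, the partner of Cdk1 and of the S phase kinase. It stood at 9.51, 10.21, 9.72 and 10.37 in Fezf2GFP arrays at 48 h, against 11.45, 11.80 and 11.77 at 24 h, and its arrays did not overlap either (log2 difference -1.72, SE 0.25, limma adjusted p = 0.00103). With CtrlGFP the levels of Ccna2 were 10.07, 10.18, 10.82 and 10.29 at 48 h, against 11.30, 11.98 and 11.90 at 24 h (log2 difference -1.39, SE 0.25, limma adjusted p = 0.0031). Ccnb2, which encodes cyclin B2, fell by 1.47 on the log2 scale with Fezf2GFP and by 1.42 with CtrlGFP. Cdc25c, the phosphatase that removes inhibitory phosphates from Cdk1, spread widely, at 7.30, 7.60, 6.01 and 7.05 in Fezf2GFP arrays at 48 h, against 8.44, 8.78 and 9.05 at 24 h (log2 difference -1.77, SE 0.49, limma adjusted p = 0.033). In CtrlGFP arrays Cdc25c stood at 6.68, 8.43, 8.43 and 6.67 at 48 h, against 9.66, 9.73 and 8.94 at 24 h (log2 difference -1.89, SE 0.49, limma adjusted p = 0.0229). Its calls were lost when some of the arrays were left out singly, with an adjusted p of up to 0.135 for Fezf2GFP (without Fezf2GFP 24 h replicate 3) and 0.0864 for CtrlGFP (without CtrlGFP 24 h replicate 2).

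The kinases Plk1 and Aurka, which mature the centrosomes and help to form the spindle poles, both fell with each vector. Plk1 stood at 9.15, 9.16, 8.24 and 9.39 in Fezf2GFP arrays at 48 h, against 10.23, 10.50 and 10.56 at 24 h (log2 difference -1.44, SE 0.28, limma adjusted p = 0.00509). In CtrlGFP arrays it stood at 8.42, 8.92, 9.52 and 8.85 at 48 h, against 11.12, 10.87 and 10.88 at 24 h (log2 difference -2.03, SE 0.28, limma adjusted p = 0.000579). The times did not overlap with either vector, and the third Fezf2GFP 48 h array was the lowest of its group. Aurka stood at 7.14, 6.98, 6.26 and 7.07 in Fezf2GFP arrays at 48 h, against 9.06, 9.06 and 9.35 at 24 h, 4.91-fold lower (log2 difference -2.30, SE 0.33, limma adjusted p = 0.000934). In CtrlGFP arrays it stood at 7.07, 6.68, 8.37 and 7.44 at 48 h, against 9.63, 9.30 and 9.41 at 24 h, 4.16-fold lower (log2 difference -2.06, SE 0.33, limma adjusted p = 0.00144). The third CtrlGFP 48 h array lay above the other 3 of its group, and neither pair of times overlapped.

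Genes of the spindle assembly checkpoint were lower at 48 h in part. Of the 6, 5 fell with Fezf2GFP (median log2 difference -1.61) and 2 with CtrlGFP (median -1.38), and whether the vectors differed was tested by the interaction described further on, which no gene passed. Bub1b, which encodes the checkpoint kinase BubR1, stood at 8.66, 8.87, 8.02 and 8.76 in Fezf2GFP arrays at 48 h, against 10.31, 10.39 and 10.31 at 24 h (log2 difference -1.76, SE 0.23, limma adjusted p = 0.000581). In CtrlGFP arrays Bub1b stood at 8.54, 8.54, 9.38 and 8.68 at 48 h, against 10.84, 10.64 and 10.64 at 24 h (log2 difference -1.92, SE 0.23, limma adjusted p = 0.000318). The 24 h arrays lay close together in each group and no array of 48 h reached them. Cdc20, the activator of the anaphase-promoting complex that the checkpoint restrains, had the smallest of the falls that passed. It stood at 12.56, 12.11, 12.02 and 11.65 in Fezf2GFP arrays at 48 h, against 13.20, 13.25 and 13.31 at 24 h (log2 difference -1.17, SE 0.22, limma adjusted p = 0.00463). In CtrlGFP arrays it stood at 12.28, 12.65, 12.96 and 12.21 at 48 h, against 13.81, 13.76 and 13.51 at 24 h (log2 difference -1.17, SE 0.22, limma adjusted p = 0.00406), with no overlap. Bub1, Ttk and Mad2l1, which encode the kinases Bub1 and Mps1 and the inhibitor Mad2, fell with Fezf2GFP and did not pass with CtrlGFP. Ttk stood at 6.87, 7.33, 7.04 and 8.31 in Fezf2GFP arrays at 48 h, against 9.81, 9.73 and 9.81 at 24 h (log2 difference -2.39, SE 0.57, limma adjusted p = 0.0148). In CtrlGFP arrays Ttk stood at 8.14, 5.83, 8.78 and 8.38 at 48 h, against 9.40, 9.15 and 9.90 at 24 h (log2 difference -1.70, SE 0.57, limma adjusted p = 0.0693), so that the groups did not overlap although the test did not pass, and the difference ran from -2.03 to -0.97 over the alternative fits. The difference of Bub1 was -2.31 with Fezf2GFP (limma adjusted p = 0.0185) and -1.58 with CtrlGFP (limma adjusted p = 0.0945), and that of Mad2l1 was -1.47 (limma adjusted p = 0.00964) and -1.02 (limma adjusted p = 0.0566). The Fezf2GFP calls of Bub1, Ttk and Mad2l1 were lost without Fezf2GFP 24 h replicate 3, with an adjusted p of 0.0737, 0.0588 and 0.0582. Bub3, which carries Bub1 and BubR1 to the kinetochore, had the smallest difference of the 39 genes with each vector. It stood at 12.60, 12.51, 12.04 and 12.11 in Fezf2GFP arrays at 48 h, against 12.65, 12.63 and 12.79 at 24 h (log2 difference -0.37, SE 0.17, limma adjusted p = 0.2), and at 12.48, 12.68, 12.75 and 12.40 in CtrlGFP arrays at 48 h, against 13.10, 12.88 and 12.79 at 24 h (log2 difference -0.35, SE 0.17, limma adjusted p = 0.248). The other Bub3 probe sets above the dim level gave -0.19 and -0.52 with Fezf2GFP, and 0.27 and 0.24 with CtrlGFP.

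**Figure D2:**
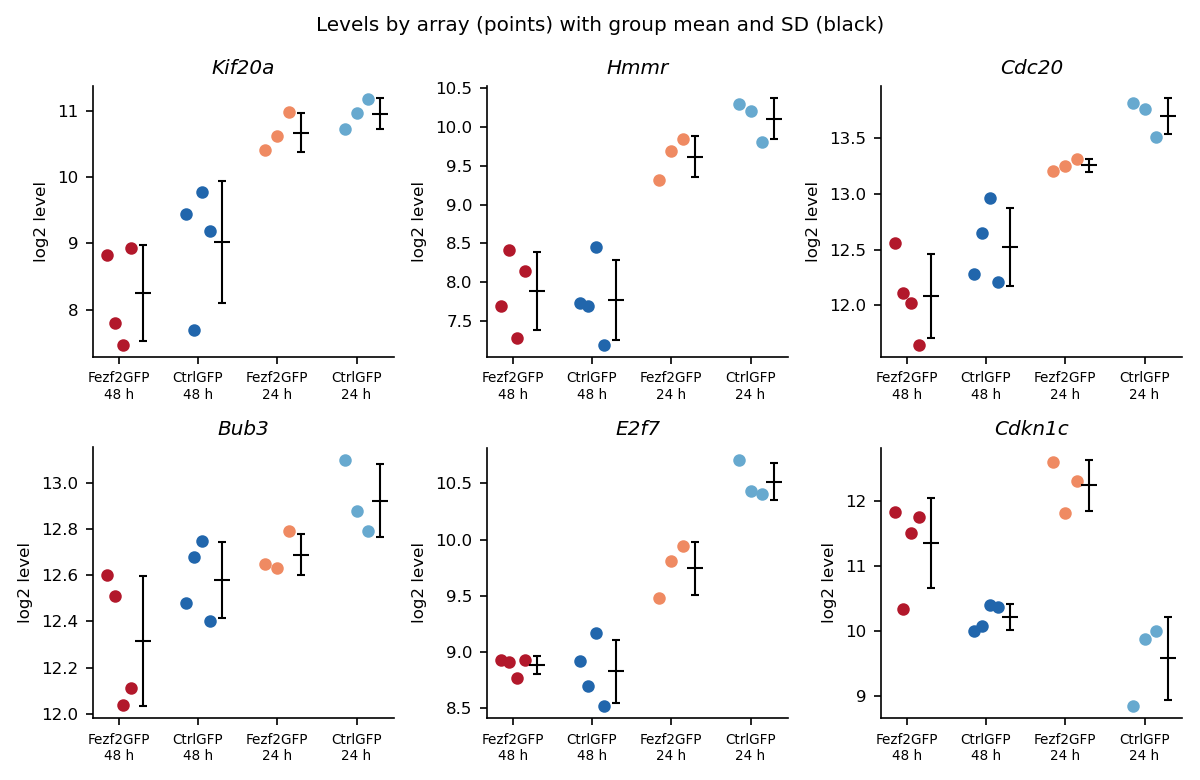
Log2 level of Kif20a, Hmmr, Cdc20, Bub3, E2f7 and Cdkn1c on each array (coloured points, by group), with the group mean and SD in black; the vertical axes differ between panels and do not start at 0. Kif20a, Hmmr, Cdc20 and E2f7 lie lower at 48 h with each vector, Bub3 differs little on its narrow axis, and Cdkn1c lies higher in all Fezf2GFP arrays at 24 h than in the CtrlGFP arrays.

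The chromosomal passenger complex, which corrects wrong attachments and later marks the cleavage plane, fell as a whole: 4 of its 4 genes fell with Fezf2GFP (median log2 difference -1.75) and 4 with CtrlGFP (median -1.60). Cdca8, which encodes the targeting subunit borealin, stood at 12.33, 12.22, 11.63 and 12.25 in Fezf2GFP arrays at 48 h, against 13.38, 13.53 and 13.68 at 24 h (log2 difference -1.42, SE 0.21, limma adjusted p = 0.000975). In CtrlGFP arrays it stood at 12.16, 12.44, 12.77 and 12.15 at 48 h, against 14.11, 13.82 and 13.77 at 24 h (log2 difference -1.52, SE 0.21, limma adjusted p = 0.000533). The groups did not overlap, and the third Fezf2GFP 48 h array lay well below its 3 neighbours. Aurkb, the kinase of the complex, fell by 1.96 on the log2 scale with Fezf2GFP and by 1.68 with CtrlGFP (limma adjusted p = 0.00418 and 0.00897). Incenp, the scaffold that activates it, fell by 1.53 and 1.25 (limma adjusted p = 0.00331 and 0.00872). Birc5, which encodes survivin, stood at 7.92, 9.48, 8.81 and 9.31 in Fezf2GFP arrays at 48 h, against 11.22, 10.87 and 10.67 at 24 h (log2 difference -2.04, SE 0.48, limma adjusted p = 0.0142). In CtrlGFP arrays Birc5 stood at 9.28, 8.45, 10.66 and 9.23 at 48 h, against 12, 10.88 and 11.24 at 24 h (log2 difference -1.97, SE 0.48, limma adjusted p = 0.0161), where the third array of 48 h came close to the second of 24 h. Its CtrlGFP call was lost without CtrlGFP 24 h replicate 1, the highest array (adjusted p = 0.0764), and its Fezf2GFP call without Fezf2GFP 24 h replicate 1 (0.0548) or replicate 2 (0.0512).

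All 7 genes of the centromere and kinetochore fell with both vectors, with median log2 differences of -1.69 with Fezf2GFP and -1.40 with CtrlGFP. Cenpf, a large protein of the outer kinetochore, had the smallest p of the 39 genes with Fezf2GFP. It stood at 9.27, 9.97, 9.62 and 10.10 in Fezf2GFP arrays at 48 h, against 11.48, 11.64 and 11.66 at 24 h (log2 difference -1.85, SE 0.22, limma adjusted p = 0.000334). In CtrlGFP arrays Cenpf stood at 9.69, 9.60, 10.39 and 9.81 at 48 h, against 11.48, 11.35 and 11.56 at 24 h (log2 difference -1.59, SE 0.22, limma adjusted p = 0.000613), and no array of 48 h reached those of 24 h. Cenpe, a kinesin that moves chromosomes to the spindle equator, stood at 9.40, 9.49, 8.42 and 8.83 in Fezf2GFP arrays at 48 h, against 10.23, 10.61 and 11.07 at 24 h (log2 difference -1.60, SE 0.28, limma adjusted p = 0.00267). In CtrlGFP arrays Cenpe stood at 8.97, 8.79, 9.50 and 9.21 at 48 h, against 11.28, 11.28 and 11.02 at 24 h (log2 difference -2.07, SE 0.28, limma adjusted p = 0.000472). Cenpa, the histone variant that marks the centromere, stood at 11.01, 11.25, 10.70 and 11.39 in Fezf2GFP arrays at 48 h, against 12.38, 12.48 and 12.35 at 24 h (log2 difference -1.32, SE 0.27, limma adjusted p = 0.00663). In CtrlGFP arrays Cenpa stood at 11.49, 11.94, 12.39 and 11.19 at 48 h, against 13.40, 12.93 and 12.77 at 24 h (log2 difference -1.28, SE 0.27, limma adjusted p = 0.00686), and neither pair of times overlapped. Ndc80, Nuf2, Spc24 and Spc25 form the Ndc80 complex, the main link between kinetochore and microtubule. Spc25 stood at 10.85, 11.13, 10.40 and 11.25 in Fezf2GFP arrays at 48 h, against 12.35, 12.53 and 12.91 at 24 h (log2 difference -1.69, SE 0.24, limma adjusted p = 0.000865). In CtrlGFP arrays Spc25 stood at 10.96, 11.15, 11.80 and 11.19 at 48 h, against 12.51, 12.72 and 12.57 at 24 h (log2 difference -1.32, SE 0.24, limma adjusted p = 0.00295). Spc24 stood at 8.17, 8.49, 8.33 and 8.82 in Fezf2GFP arrays at 48 h, against 10.24, 10.18 and 10.24 at 24 h, and at 8.84, 10.15, 9.90 and 8.72 in CtrlGFP arrays at 48 h, against 12.43, 10.67 and 10.45 at 24 h. The first CtrlGFP 24 h array thus lay far above its group in Spc24, and the falls of 1.77 with Fezf2GFP and 1.78 with CtrlGFP (limma adjusted p = 0.0207 and 0.0192) did not pass when some of the arrays were left out singly, with an adjusted p of 0.077 without Fezf2GFP 24 h replicate 3 and 0.0702 without CtrlGFP 24 h replicate 1, where the CtrlGFP difference itself was -1.16. Ndc80 fell by 1.94 with Fezf2GFP and 1.40 with CtrlGFP, and Nuf2 by 1.35 and 1.38.

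Of the 4 motors of spindle and chromosomes, 3 fell with each vector. Kif4, a chromosome-bound kinesin, stood at 7.52, 7.60, 7.11 and 7.62 in Fezf2GFP arrays at 48 h, against 9.14, 9.02 and 9.15 at 24 h (log2 difference -1.64, SE 0.22, limma adjusted p = 0.000582). In CtrlGFP arrays Kif4 stood at 6.86, 7.64, 7.86 and 7.16 at 48 h, against 9.13, 9.15 and 9.07 at 24 h (log2 difference -1.74, SE 0.22, limma adjusted p = 0.00037), and the 24 h arrays of both vectors lay close together, between 9.02 and 9.15. Kif2c, which takes microtubules apart at the kinetochore, stood at 10.83, 11.02, 10.32 and 10.25 in Fezf2GFP arrays at 48 h, against 11.89, 11.84 and 11.99 at 24 h (log2 difference -1.30, SE 0.22, limma adjusted p = 0.00243). In CtrlGFP arrays Kif2c stood at 10.70, 11.02, 11.40 and 10.66 at 48 h, against 12.57, 12.46 and 12.33 at 24 h (log2 difference -1.51, SE 0.22, limma adjusted p = 0.000855). Kif11, the motor that pushes the spindle poles apart, fell by 1.86 on the log2 scale with Fezf2GFP and by 1.67 with CtrlGFP (limma adjusted p = 0.00118 and 0.00178). Kif22, which pushes chromosome arms towards the equator, did not pass. Its chosen probe set stood at 11.11, 11, 10.92 and 10.38 in Fezf2GFP arrays at 48 h, against 11.51, 11.42 and 11.42 at 24 h (log2 difference -0.59, SE 0.19, limma adjusted p = 0.0674), and at 10.93, 11.19, 11.28 and 10.90 in CtrlGFP arrays at 48 h, against 11.97, 11.45 and 11.59 at 24 h (log2 difference -0.60, SE 0.19, limma adjusted p = 0.0643). The gene's other probe sets gave another size: their log2 differences were -3.05 and -1.92 with Fezf2GFP and -2.81 and -1.96 with CtrlGFP, and the mean over its probe sets passed in both comparisons (log2 difference -1.86, limma adjusted p = 0.0016, with Fezf2GFP and -1.79, limma adjusted p = 0.00174, with CtrlGFP).

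Proteins that organise spindle microtubules fell in 4 of 4 cases with each vector (median log2 difference -1.88 with Fezf2GFP and -1.79 with CtrlGFP). Tpx2, which activates Aurora A and starts microtubules near the chromosomes, stood at 9.34, 9.53, 8.91 and 9.52 in Fezf2GFP arrays at 48 h, against 11.09, 10.88 and 10.85 at 24 h (log2 difference -1.61, SE 0.25, limma adjusted p = 0.0014). In CtrlGFP arrays Tpx2 stood at 8.89, 9.34, 10.09 and 9.15 at 48 h, against 11.45, 11.21 and 11.20 at 24 h (log2 difference -1.92, SE 0.25, limma adjusted p = 0.00043). Hmmr, a spindle pole protein, had the largest fall of the 39 genes with CtrlGFP. It stood at 7.69, 8.42, 7.28 and 8.15 in Fezf2GFP arrays at 48 h, against 9.32, 9.69 and 9.84 at 24 h (log2 difference -1.73, SE 0.31, limma adjusted p = 0.00317). In CtrlGFP arrays Hmmr stood at 7.73, 7.70, 8.46 and 7.20 at 48 h, against 10.30, 10.21 and 9.81 at 24 h, 5.04-fold lower (log2 difference -2.33, SE 0.31, limma adjusted p = 0.000441). No 48 h array of Hmmr reached a 24 h array. Nusap1, which bundles spindle microtubules, fell by 2.10 on the log2 scale with Fezf2GFP and by 1.66 with CtrlGFP. Aspm, a spindle pole protein needed for a normal brain size in human and mouse, stood at 8.31, 9.44, 9.18 and 9.54 in Fezf2GFP arrays at 48 h, against 11.36, 11.08 and 11.02 at 24 h (log2 difference -2.04, SE 0.37, limma adjusted p = 0.00351). In CtrlGFP arrays Aspm stood at 9.57, 8.52, 10.33 and 9.75 at 48 h, against 11.02, 10.88 and 11.20 at 24 h (log2 difference -1.49, SE 0.37, limma adjusted p = 0.018), a call that was lost without CtrlGFP 24 h replicate 3 (adjusted p = 0.0657) or replicate 1 (0.051). With the mean over the probe sets of Aspm neither difference passed, at -0.41 with Fezf2GFP (limma adjusted p = 0.19) and -0.35 with CtrlGFP (limma adjusted p = 0.266), but its 4 other probe sets lay above the dim level on at most 1 array, so this mean says little of the gene.

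Of the 7 genes of cytokinesis, the final cut between daughter cells, 6 fell with each vector (median log2 difference -1.87 with Fezf2GFP and -1.76 with CtrlGFP). Kif20a, a kinesin that carries the passenger complex to the central spindle, had the largest fall with Fezf2GFP. It stood at 8.82, 7.80, 7.48 and 8.93 in Fezf2GFP arrays at 48 h, against 10.40, 10.61 and 10.98 at 24 h, 5.31-fold lower (log2 difference -2.41, SE 0.46, limma adjusted p = 0.00449). In CtrlGFP arrays Kif20a stood at 9.44, 7.70, 9.78 and 9.19 at 48 h, against 10.72, 10.96 and 11.18 at 24 h (log2 difference -1.92, SE 0.46, limma adjusted p = 0.0143), where the second array of 48 h lay lowest. The CtrlGFP call of Kif20a was lost without CtrlGFP 24 h replicate 3 (adjusted p = 0.0556). Ect2, the exchange factor that activates RhoA at the cleavage site, stood at 10.80, 10.82, 10.44 and 11.24 in Fezf2GFP arrays at 48 h, against 11.89, 12.15 and 12.35 at 24 h (log2 difference -1.31, SE 0.19, limma adjusted p = 0.00101). In CtrlGFP arrays Ect2 stood at 11.10, 10.91, 11.31 and 11 at 48 h, against 12.61, 12.47 and 12.37 at 24 h (log2 difference -1.40, SE 0.19, limma adjusted p = 0.00055). Kif20b, another kinesin of the late spindle, stood at 5.76, 6.14, 5.71 and 6.68 in Fezf2GFP arrays at 48 h, against 7.69, 8.05 and 8.07 at 24 h (log2 difference -1.87, SE 0.28, limma adjusted p = 0.00104), and fell by 1.76 with CtrlGFP (limma adjusted p = 0.00123). The mean over its probe sets gave -0.51 with Fezf2GFP (limma adjusted p = 0.0669), which did not pass, and its other probe sets lay above the dim level on at most 3 arrays. Kif23 and Racgap1 together form centralspindlin, which bundles the central spindle. Kif23 fell by 2.15 with Fezf2GFP and 2.10 with CtrlGFP (limma adjusted p = 0.00169 and 0.00152). Racgap1 stood at 8.75, 9.76, 10.02 and 10.43 in Fezf2GFP arrays at 48 h, against 11.33, 11.17 and 11.10 at 24 h (log2 difference -1.46, SE 0.47, limma adjusted p = 0.0633). In CtrlGFP arrays Racgap1 stood at 10.06, 8.37, 10.58 and 10 at 48 h, against 10.57, 10.83 and 11.34 at 24 h (log2 difference -1.16, SE 0.47, limma adjusted p = 0.14), the 1 gene and comparison of the 39 whose times overlapped, and without CtrlGFP 48 h replicate 2 the difference was -0.70. Its other probe set above the dim level gave log2 differences of -1.55 with Fezf2GFP and -1.29 with CtrlGFP, and the mean over the probe sets of Racgap1 passed with both (-1, limma adjusted p = 0.00401, with Fezf2GFP and -0.83, limma adjusted p = 0.0107, with CtrlGFP). The Fezf2GFP difference of Racgap1 passed in 8 of 23 alternative fits. Prc1, which crosslinks the central spindle, fell by 1.45 and 1.81, and Anln, the anillin of the contractile ring, by 1.87 and 1.52, with Fezf2GFP and CtrlGFP in that order. The Fezf2GFP call of Prc1 was lost without Fezf2GFP 24 h replicate 3 (adjusted p = 0.072).

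Top2a, the topoisomerase that untangles sister chromosomes, fell with both vectors. It stood at 11.31, 11.30, 10.96 and 11.68 in Fezf2GFP arrays at 48 h, against 12.90, 12.82 and 12.99 at 24 h (log2 difference -1.59, SE 0.24, limma adjusted p = 0.00117). In CtrlGFP arrays Top2a stood at 11.09, 11, 12.07 and 11.53 at 48 h, against 12.83, 12.85 and 12.98 at 24 h (log2 difference -1.46, SE 0.24, limma adjusted p = 0.00157). The 24 h arrays of both vectors lay between 12.82 and 12.99.

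**Figure D3:**
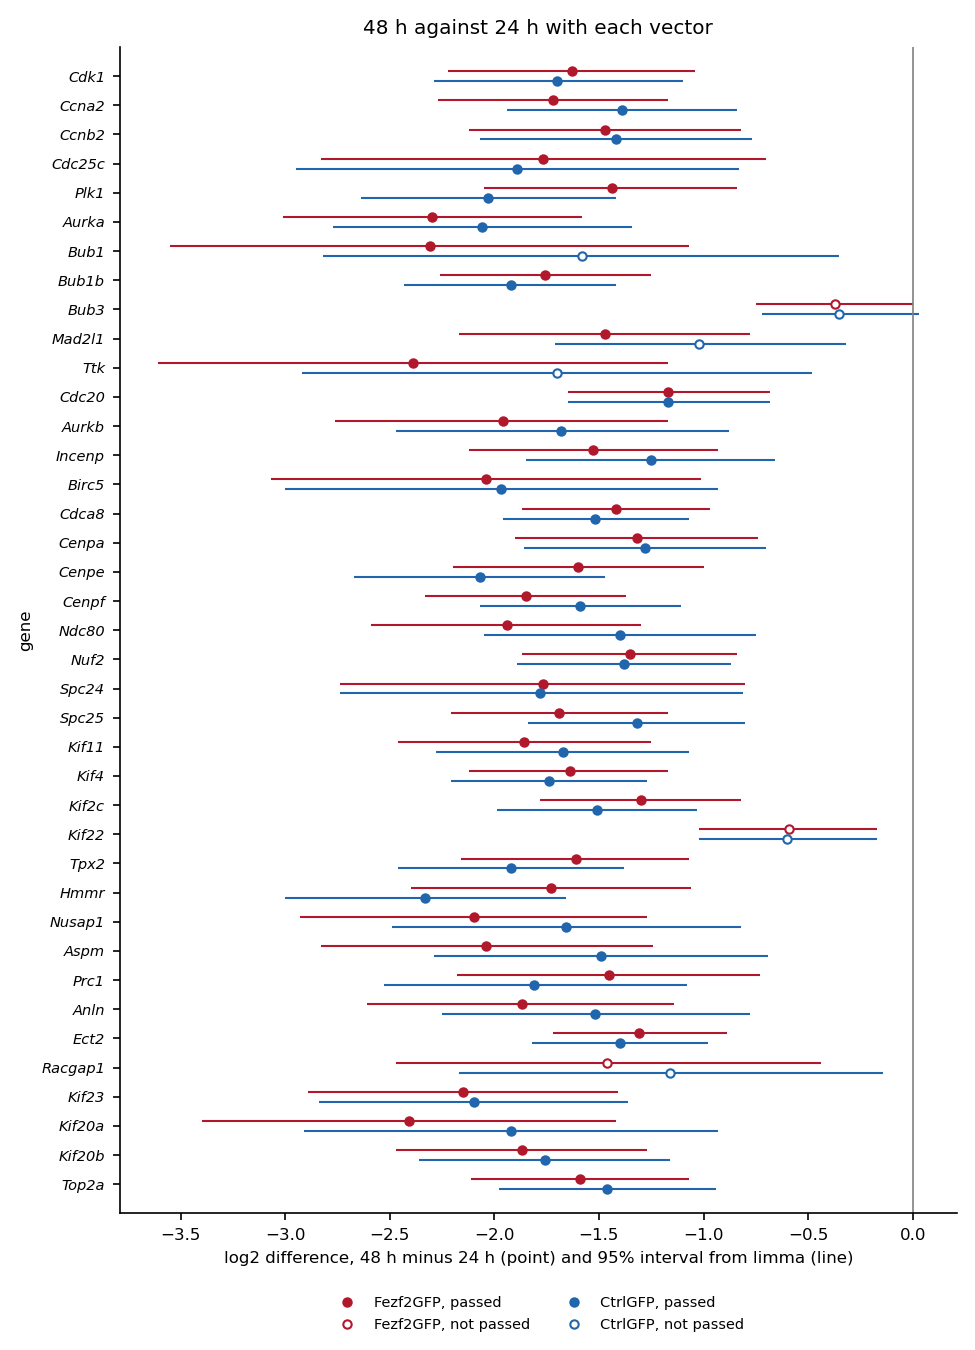
Log2 difference of 48 h minus 24 h for the 39 genes with Fezf2GFP (red) and with CtrlGFP (blue); points are limma estimates, lines their 95% intervals, and filled points passed. All points lie left of 0, most between -2.41 and -1.17, with Bub3 and Kif22 nearest to 0.

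The level of the genes moved together from array to array at 48 h, and in part, over a smaller range, among the Fezf2GFP arrays at 24 h. The median level of the 39 genes on an array averaged 9.42 ± 0.37 (SD, n = 4) in Fezf2GFP arrays at 48 h and 9.68 ± 0.57 (SD, n = 4) in CtrlGFP arrays at 48 h, and 11.14 ± 0.07 (SD, n = 3) in Fezf2GFP arrays at 24 h and 11.31 ± 0.09 (SD, n = 3) in CtrlGFP arrays at 24 h. The median SD of a gene within a group was 0.45 and 0.46 at 48 h, with Fezf2GFP and with CtrlGFP, and 0.17 with each vector at 24 h. Over all genes tested the median SD was 0.34 with each vector at 48 h, and at 24 h 0.18 with Fezf2GFP and 0.29 with CtrlGFP. The third CtrlGFP 48 h array was the highest of its group in 38 of the 39 genes (97.4%), while it was the highest in 25.6% of all genes tested. The third Fezf2GFP 48 h array was the lowest of its group in 25 of the 39 (64.1%), against 29.8% of all genes, and the fourth the highest in 22 (56.4%), against 42.1%. The second CtrlGFP 48 h array, one of the pair with the highest table medians, was the lowest in 21 of the 39 (53.8%), against 41.9% of all genes. At 24 h the third Fezf2GFP array was the highest of its group in 27 of the 39 (69.2%), against 31.1% of all genes. The first Fezf2GFP array at 24 h was the lowest in 22 (56.4%), against 30.3%. The median level of the 39 genes ran the other way on these arrays, at 11.22 on the first and 11.10 on the third. Without the pair of control arrays with the highest table medians, 38 genes fell with Fezf2GFP and 31 with CtrlGFP.

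**Figure D4:**
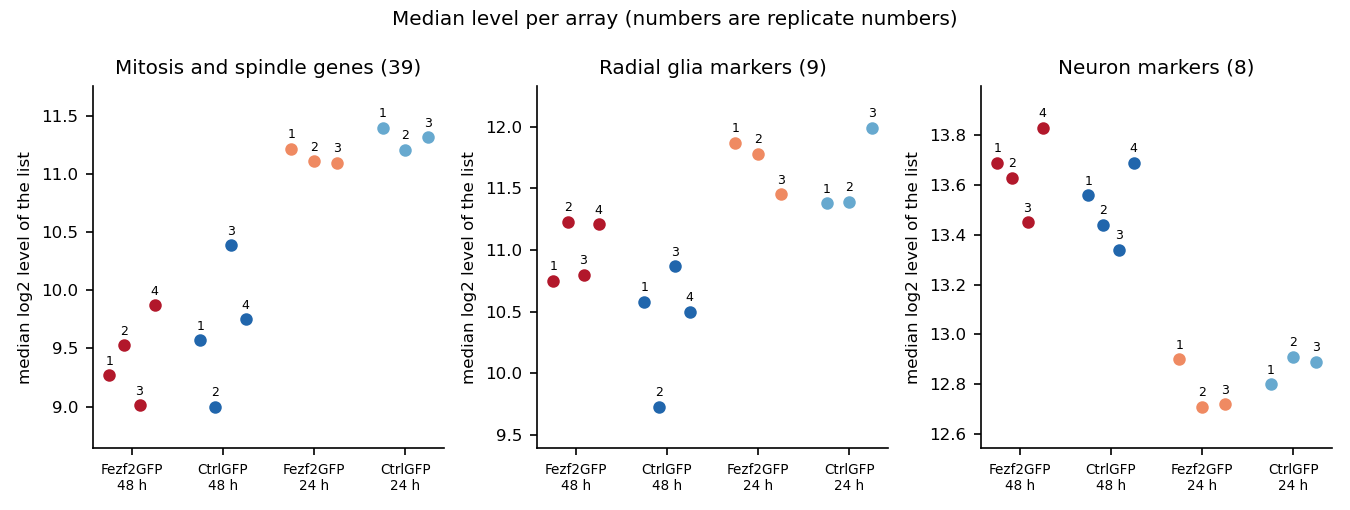
Median log2 level per array of the 39 mitosis and spindle genes, of 9 radial glia markers and of 8 neuron markers, by group, with replicate numbers beside the points; the axes do not start at 0. The mitosis genes lie at 9 to 10.39 on the 48 h arrays and at 11.10 to 11.40 on the 24 h arrays, and the neuron markers lie higher on every 48 h array than on any 24 h array.

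Markers of cell type moved with time as well. Of 8 neuron markers 3 rose and 0 fell with each vector, and the log of their summed linear level lay at 16.64 to 16.87 in Fezf2GFP arrays at 48 h, against 16.25 to 16.28 at 24 h, and at 16.48 to 16.79 in CtrlGFP arrays at 48 h, against 15.88 to 16.23 at 24 h. Stmn2, a tubulin-binding protein of growing neurons, rose by 1.5 on the log2 scale with Fezf2GFP (limma adjusted p = 0.0408, passing in 12 of 23 alternative fits) and by 3.18 with CtrlGFP (limma adjusted p = 0.00055, passing in 23 of 23). Of 9 radial glia markers 0 fell with Fezf2GFP and 3 with CtrlGFP, and the same sum lay at 15.59 to 16.21 in Fezf2GFP arrays at 48 h, against 16.23 to 16.46 at 24 h, and at 15.72 to 16.03 in CtrlGFP arrays at 48 h, against 16.33 to 16.44 at 24 h. Of 5 intermediate progenitor markers 3 fell with Fezf2GFP and 4 with CtrlGFP, with sums of 15.60 to 15.78 in Fezf2GFP arrays at 48 h, against 15.79 to 16.05 at 24 h, and of 15.41 to 15.68 in CtrlGFP arrays at 48 h, against 15.94 to 16.12 at 24 h. Within this list the proneural factor Neurog1 had the largest fall (-3.87 with Fezf2GFP and -3.50 with CtrlGFP, limma adjusted p = 0.000256 and 0.000371). Insm1, a zinc finger factor of the same list, lay on the other side of 0 and did not pass (0.66 and 0.17, limma adjusted p = 0.0908 and 0.752). Of 6 interneuron markers 0 passed with either vector (medians 0.47 with Fezf2GFP and 0.79 with CtrlGFP), and their sum lay at 9.24 to 10.29 in Fezf2GFP arrays at 48 h, against 6.90 to 10.64 at 24 h, and at 7.62 to 10.42 in CtrlGFP arrays at 48 h, against 7 to 7.28 at 24 h. Of the 2 pericyte markers tested 0 passed (medians 1.27 with Fezf2GFP and 0.91 with CtrlGFP), and the sum over 4 lay at 8.83 to 10.12 in Fezf2GFP arrays at 48 h, against 7.11 to 10.20 at 24 h, and at 7.83 to 9.39 in CtrlGFP arrays at 48 h, against 7.33 to 8.98 at 24 h. The part of these markers' cells in the fall of the mitosis genes was not tested.

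The wider cell cycle programme was lower at 48 h too, in most of its lists. Of 77 other mitosis genes tested, 51 fell with Fezf2GFP and 46 with CtrlGFP and 0 rose with either, with median log2 differences of -1.48 and -1.35. Spdl1, which brings dynein to kinetochores, fell by 2 with Fezf2GFP and 1.86 with CtrlGFP, Ncapg of condensin by 2.45 and 2.09, Ckap2l of the spindle by 1.79 and 1.87, and Espl1, the protease separase, by 2.01 and 2.15. Of 20 S phase genes 11 fell with Fezf2GFP and 17 with CtrlGFP (medians -0.93 and -1.03). Among them the helicase subunit Mcm3 fell by 1.39 and 1.71 and the licensing factor Cdt1 by 1.08 and 1.35. Of 17 G1 cyclins, their kinases and cell cycle inhibitors, 7 fell with each vector (medians -0.88 and -0.75), among them Gadd45g, a growth arrest gene, by 1.70 and 1.34, Ccnd1, cyclin D1, by 1.52 and 1.10, and Ccne1, cyclin E1, by 1.03 and 1.36. The inhibitor gene Cdkn1c did not pass (-0.89, limma adjusted p = 0.15, with Fezf2GFP and 0.63, limma adjusted p = 0.333, with CtrlGFP). Of 20 regulators of mitotic transcription 7 fell with Fezf2GFP and 9 with CtrlGFP (median -0.64 with each). Mybl2, the Myb factor of the MuvB complex, was 4.04-fold lower with Fezf2GFP (log2 difference -2.01, SE 0.27, limma adjusted p = 0.000613) and 3.38-fold lower with CtrlGFP (log2 difference -1.76, SE 0.27, limma adjusted p = 0.00111). E2f7, an E2F protein that represses, stood at 8.93, 8.91, 8.77 and 8.93 in Fezf2GFP arrays at 48 h, against 9.48, 9.81 and 9.94 at 24 h (log2 difference -0.86, SE 0.18, limma adjusted p = 0.00685). In CtrlGFP arrays E2f7 stood at 8.92, 8.70, 9.17 and 8.52 at 48 h, against 10.71, 10.43 and 10.41 at 24 h (log2 difference -1.69, SE 0.18, limma adjusted p = 0.000113). Foxm1, a forkhead activator of late cell cycle genes, fell with CtrlGFP (log2 difference -1.03, SE 0.19, limma adjusted p = 0.00325) and had a difference of -0.49 with Fezf2GFP (limma adjusted p = 0.124).

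Of the 16 tested genes of the anaphase-promoting complex and its regulators, 1 fell with each vector and 0 rose, near the 5.67% and 6.69% of all genes tested that fell. Their median log2 differences were -0.11 with Fezf2GFP and -0.07 with CtrlGFP. The gene that fell was Fbxo5, which encodes Emi1, an inhibitor of the complex, which was lower with Fezf2GFP (log2 difference -1.51, SE 0.24, limma adjusted p = 0.00174) and with CtrlGFP (log2 difference -1.46, SE 0.24, limma adjusted p = 0.0016).

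Between the vectors, no mitosis gene passed at either time, and most had a difference below 0. At 24 h 0 of the 39 genes passed (limma), where 1.06% of all genes tested did. An unadjusted limma p below 0.05 was found for 2 of the 39, beside 911 of the 10295 genes tested. Of the 39, 31 had a difference below 0 (79.5%), beside 43.6% of all genes tested, and the median was -0.29 beside 0.06 over all genes. Leaving out single 24 h arrays gave from 25 genes below 0 (without Fezf2GFP replicate 1) to 32 (without Fezf2GFP replicate 3). In 14 of the 39 every Fezf2GFP array lay below every CtrlGFP array, which was so for 7% of all genes tested. These were Cdk1, Ccnb2, Plk1, Bub1b, Cdc20, Cdca8, Cenpa, Spc24, Kif2c, Tpx2, Prc1, Ect2, Kif23 and Kif20b, and 0 genes of the 39 were split the other way, against 12.6% of all genes tested. The 39 genes share their arrays, so they are not separate pieces of evidence, and the list was not tested as a whole.

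The smallest p at 24 h was that of Kif2c, at 11.89, 11.84 and 11.99 in Fezf2GFP arrays, against 12.57, 12.46 and 12.33 in CtrlGFP arrays (log2 difference -0.55, SE 0.24, limma adjusted p = 0.508). The other Kif2c probe set above the dim level went the other way, with a log2 difference of 0.39. Over the alternative fits the Kif2c difference ran from -0.61 to -0.08. Cenpa stood at 12.38, 12.48 and 12.35 in Fezf2GFP arrays, against 13.40, 12.93 and 12.77 in CtrlGFP arrays (log2 difference -0.63, SE 0.29, limma adjusted p = 0.556). Spc24 stood at 10.24, 10.18 and 10.24 in Fezf2GFP arrays, against 12.43, 10.67 and 10.45 in CtrlGFP arrays, with the first control array far above the others (log2 difference -0.96, SE 0.48, limma adjusted p = 0.62), and without that array the difference was -0.34. Cenpe differed by -0.56 (limma adjusted p = 0.662), and by -0.35 without Fezf2GFP 24 h replicate 1. The 95% interval of the difference ran from -1.06 to -0.03 for Kif2c and from -0.54 to 0.57 for Top2a, and for Spc24 it reached -1.99.

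At 48 h 0 of the 39 genes passed (limma), where 3.13% of all genes tested did. An unadjusted limma p below 0.05 was found for 3 of the 39, beside 1569 of the 10295 genes tested. The difference was below 0 in 36 of the 39 (92.3%), beside 42.7% of all genes tested, and the median was -0.36 beside 0.06 over all genes. In 0 of the 39 were the vectors free of overlap with Fezf2GFP lower, against 1.72% of all genes tested. Cenpa stood at 11.01, 11.25, 10.70 and 11.39 in Fezf2GFP arrays, against 11.49, 11.94, 12.39 and 11.19 in CtrlGFP arrays (log2 difference -0.67, SE 0.25, limma adjusted p = 0.202). Ndc80 stood at 7.07, 6.23, 6.14 and 6.81 in Fezf2GFP arrays, against 6.79, 7.26, 7.45 and 7.44 in CtrlGFP arrays (log2 difference -0.67, SE 0.28, limma adjusted p = 0.254), and in both genes the lowest arrays were of Fezf2GFP. Spc24 stood at 8.17, 8.49, 8.33 and 8.82 in Fezf2GFP arrays, against 8.84, 10.15, 9.90 and 8.72 in CtrlGFP arrays (log2 difference -0.95, SE 0.41, limma adjusted p = 0.289). Cdc20 differed by -0.44 (limma adjusted p = 0.334), and Plk1, Kif4 and Hmmr by 0.06, 0.08 and 0.11, the 3 differences above 0. Single arrays weighed on the median at 48 h: it was -0.18, with 29 genes below 0, without CtrlGFP 48 h replicate 3, and -0.20, with 31 below 0, without Fezf2GFP 48 h replicate 3.

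**Figure D5:**
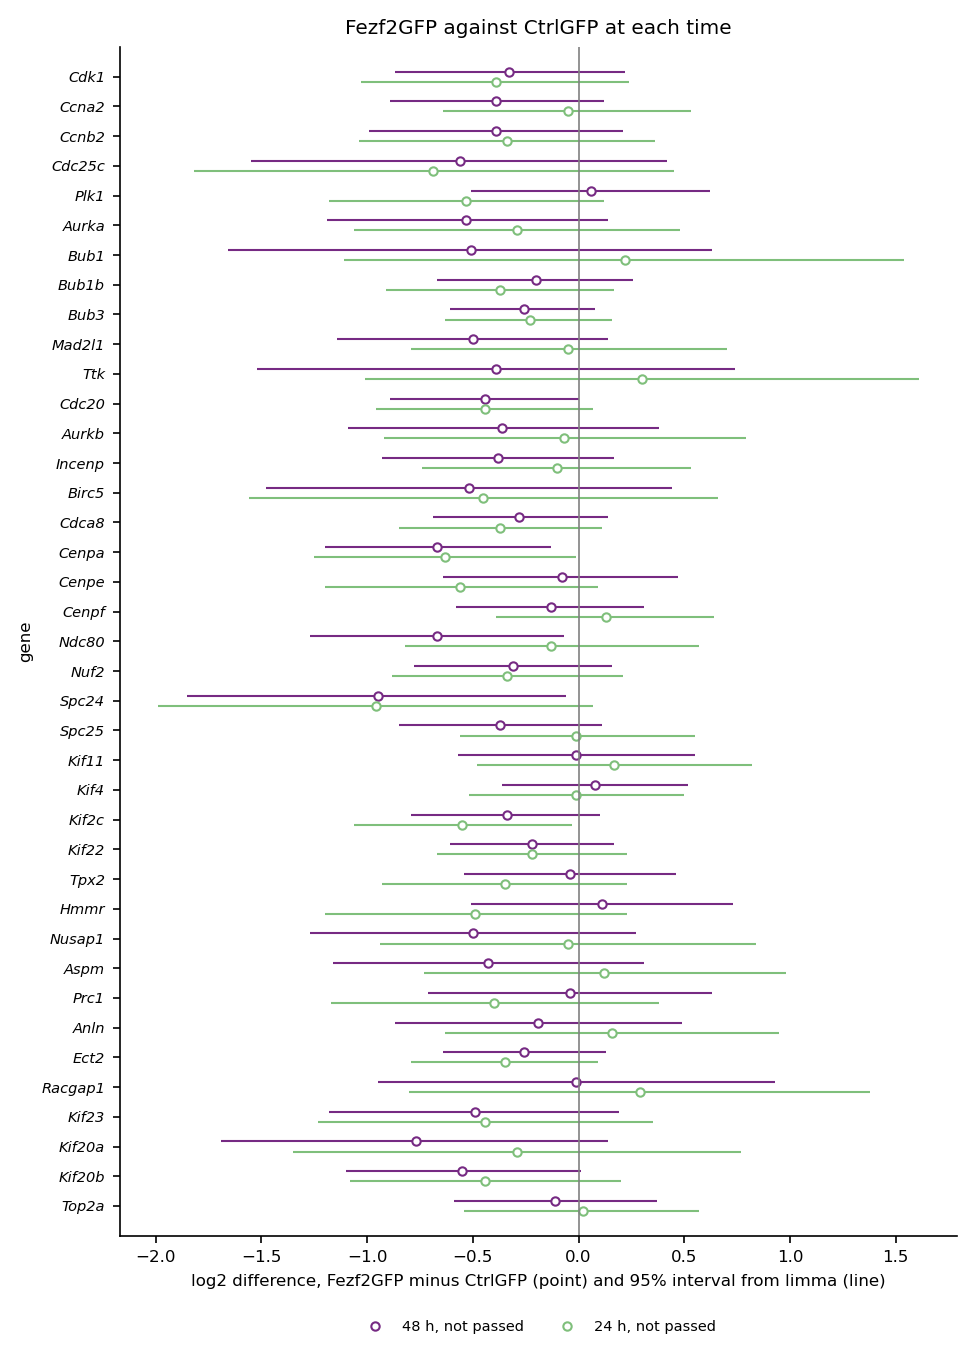
Log2 difference of Fezf2GFP minus CtrlGFP for the 39 genes at 48 h (purple) and at 24 h (green); points are limma estimates, lines their 95% intervals, and open points did not pass. Most points lie left of 0 at both times, and the intervals of all but 2 genes at 24 h and 3 at 48 h include 0.

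Whether the fall from 24 h differed between the vectors was tested by the interaction of vector and time. Here 0 of the 39 genes passed (limma), where 0.0971% of all genes tested did. An unadjusted limma p below 0.05 was found for 0 of the 39, beside 509 of the 10295 genes tested. The interaction (the 48 h minus 24 h difference with Fezf2GFP, less that with CtrlGFP) ran from -0.73 (Bub1) to 0.60 (Hmmr), with a median of -0.05. The smallest p was that of Plk1, whose difference between times was -1.44 with Fezf2GFP and -2.03 with CtrlGFP (interaction 0.58, SE 0.40, limma adjusted p = 0.998). Hmmr (0.60), Ndc80 (-0.55) and Cenpe (0.47) came next. All 39 intervals included 0 and the median SE was 0.40, and the intervals reached -2.48 and 1.63, so these arrays do not show that the falls were equal. Bub1, Ttk and Mad2l1, which passed with Fezf2GFP and not with CtrlGFP, had interactions of -0.73, -0.69 and -0.46, each with a limma adjusted p of 0.998.

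Among the other cell cycle lists, 1 gene passed between the vectors at 24 h and 1 at 48 h. Both belong to the 17 tested G1 cyclins, their kinases and cell cycle inhibitors, and the lists described further on held 0. Of all genes tested, 1.06% passed at 24 h and 3.13% at 48 h. Cdkn1c, which encodes an inhibitor of cyclin-dependent kinases, stood at 12.60, 11.82 and 12.30 in Fezf2GFP arrays at 24 h, against 8.84, 9.88 and 10 in CtrlGFP arrays. All Fezf2GFP arrays lay above all CtrlGFP arrays, and Cdkn1c was 6.33-fold higher with Fezf2GFP (log2 difference 2.66, SE 0.39, limma adjusted p = 0.00506). At 48 h Cdkn1c stood at 11.83, 10.33, 11.51 and 11.75 in Fezf2GFP arrays, against 10, 10.07, 10.40 and 10.36 in CtrlGFP arrays, with 1 Fezf2GFP array among the controls (log2 difference 1.14, SE 0.34, limma adjusted p = 0.0957). Gadd45g stood at 10.21, 9.93, 9.84 and 10.91 in Fezf2GFP arrays at 48 h, against 11.37, 12.31, 11.91 and 11.56 in CtrlGFP arrays (log2 difference -1.57, SE 0.25, limma adjusted p = 0.00441), with no overlap. At 24 h Gadd45g stood at 11.74, 11.88 and 12.15 in Fezf2GFP arrays, against 13.34, 13.01 and 13.03 in CtrlGFP arrays (log2 difference -1.2, SE 0.29, limma adjusted p = 0.0774). Both calls, of Cdkn1c at 24 h and of Gadd45g at 48 h, passed in 23 of 23 alternative fits.

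Of the regulators of mitotic transcription, 0 of 20 passed at either time. An unadjusted limma p below 0.05 was found for 4 of the 20 at 24 h and 0 at 48 h. Of the 10295 genes tested, 911 had such a p at 24 h and 1569 at 48 h. E2f7 stood at 9.48, 9.81 and 9.94 in Fezf2GFP arrays at 24 h, against 10.71, 10.43 and 10.41 in CtrlGFP arrays, without overlap (log2 difference -0.77, SE 0.19, limma adjusted p = 0.0805), and Foxm1 at 6.21, 5.67 and 5.58 against 6.58, 6.49 and 6.05 (log2 difference -0.56, SE 0.20, limma adjusted p = 0.36). Of the 77 other mitosis genes 0 passed at either time, with medians of -0.21 at 48 h and -0.13 at 24 h. The nearest to the threshold at 48 h were Cenph, a gene of the inner kinetochore (log2 difference -1.12, SE 0.29, limma adjusted p = 0.0571), and Cit, the citron kinase of cytokinesis (log2 difference -0.87, SE 0.23, limma adjusted p = 0.0586), and at 24 h Ccnf, cyclin F (log2 difference -0.83, SE 0.29, limma adjusted p = 0.316). Of the 16 genes of the anaphase-promoting complex 0 passed at either time, with medians of 0.00 at 48 h and -0.10 at 24 h. Of the 20 S phase genes 0 passed at either time, with medians of -0.15 at 48 h and -0.21 at 24 h, and Tyms, thymidylate synthase, had the smallest p at 24 h (log2 difference -1.30, SE 0.39, limma adjusted p = 0.2), with a difference of -0.72 without CtrlGFP 24 h replicate 1.

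Markers of dividing and postmitotic cells stood as follows beside the vector comparisons. Of 9 radial glia markers 1 rose with Fezf2GFP at 48 h and 0 at 24 h (medians 0.445 and 0.305). The gene was Nes, the intermediate filament nestin (log2 difference 1.30, SE 0.21, limma adjusted p = 0.00472), a call that held in 22 of 23 alternative fits. Of 8 neuron markers and of 5 intermediate progenitor markers 0 passed at either time. Interneuron markers, of cells that come from outside the cortex, had a median of 0.75 at 48 h and 1.32 at 24 h, with 0 of 6 passing. Of the 2 pericyte markers tested 0 passed, with medians of 1.12 at 48 h and 0.77 at 24 h. The summed levels of both lists are those given by group beside the comparison of times. The part of these cells in the lower median of the mitosis genes with Fezf2GFP was not tested.

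The other probe sets of the genes gave a check on the choice of 1 probe set a gene. Of the 39 genes 28 had 56 further probe sets, of which 33 lay above the dim level. Between the times 33 of these 33 had a difference below 0 with Fezf2GFP and 31 with CtrlGFP. Between the vectors 29 of 33 lay below 0 at 48 h and 24 at 24 h, where 29 and 21 had the sign of the chosen probe set.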

How the data were processed

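Transcripts of sorted GFP-positive cells were measured on 14 arrays in 4 groups, after 2 rounds of in vitro transcription per the labels' protocols. The deposited values are log2 expression per probe set, made by the authors with GCRMA per the submitters' processing notes, which corrects background, normalizes between arrays and summarises probes. The sources used here give neither its version nor its settings. The table held 45037 probe sets, and per the platform annotation 34945 had 1 gene symbol, 932 several and 9160 none.

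The deposited log2 values were used without a further scaling. A gene was tested if its probe set exceeded 4 in at least 3 arrays (10295 genes). Group means were fitted to all 14 arrays with limma 3.58.1 in R 4.3.3 (lmFit and eBayes, 10 residual degrees of freedom, all tests two-sided), and p-values were adjusted by Benjamini-Hochberg over all genes tested, with a threshold of 0.05. A fold is the size of the log2 difference on the linear scale. The fit was tested on simulated data. Marker sums were taken on the linear scale and given as log2. No scan or slide information was used, so batches were not tested, and precision is limited by how few arrays there are. The members and gene lists were chosen with earlier results of these data known. Per-array values are given for up to 10 members that passed per comparison, by p, and for the 4 members of smallest p between vectors. Of other lists, up to 3 passing genes by p are named, or 2 where none passed. The per-array values of Cdk1, Cdc25c, Ttk, Bub3, Birc5, Kif22, Aspm, Kif20a and Racgap1, the time differences of Foxm1 and Cdkn1c, and the promoters shown were chosen after the values were seen. Same-numbered replicates deviated together in part. Between vectors the correlation of their deviations ran from -0.006 to 0.318 at 24 h and from -0.056 to 0.286 at 48 h. It exceeded 0.1 in 2 of 3 pairs at 24 h and 2 of 4 at 48 h. Between times it exceeded 0.1 in 0 of 3 pairs with Fezf2GFP and 1 of 3 with CtrlGFP. Whether the numbers pair the samples is thus not settled. The number was not used as a block in the fit reported, and a fit with it is among the alternatives.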

Additional observations from a re-analysis of the deposited data

Results flagged for a closer look

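Among 78 groups of 4 arrays checked (each of the 39 genes with each vector at 48 h), 1 held an array far from the others. Cdca8 stood at 11.63 on the third Fezf2GFP 48 h array, the lowest of its group, while the nearest of the other arrays lay at 12.22, and that gap made up 0.847 of the range of the group. Chance gives such a gap in about 1 in 20 groups.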

How the results depend on the processing

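The falls between times kept their direction over the list under all 23 alternatives. With Fezf2GFP the count of genes that fell was 30 to 37 when 1 array was left out and 33 to 38 otherwise, and the median -1.79 to -1.53 and -1.70 to -1.47. With CtrlGFP the count was 29 to 35 when 1 array was left out and 26 to 38 otherwise (26 with only the compared groups in the fit), and the median -1.81 to -1.41 and -1.73 to -1.39. Leaving out 1 array ended the call of 7 genes with Fezf2GFP (Birc5, Bub1, Cdc25c, Mad2l1, Prc1, Spc24 and Ttk, adjusted p 0.0512 to 0.135) and of 5 with CtrlGFP (Aspm, Birc5, Cdc25c, Kif20a and Spc24, 0.051 to 0.0864). It added Kif22 and Racgap1 with Fezf2GFP (0.0124 to 0.0492) and Bub1, Kif22, Mad2l1 and Ttk with CtrlGFP (0.0291 to 0.0369). Between vectors the count stayed at 0 when 1 array was left out, at either time and for the interaction. Array weights gave 3 of the 39 genes at 24 h, where 19.7% of all genes tested passed. They gave 2 of the 39 at 48 h, near the 5.34% of all genes tested that passed. The weights converged poorly, and with them 2030 of all genes passed at 24 h, against 109 without, and the cause was not tested. The median at 24 h was -0.36 to -0.23 when 1 array was left out and -0.19 with the mean over the probe sets of a gene, at 48 h -0.45 to -0.18, and for the interaction -0.21 to 0.09, the last without CtrlGFP 48 h replicate 3. The mean over probe sets reversed the Bub3 difference between times with CtrlGFP to 0.07 (limma adjusted p = 0.84) and the Cenpe interaction to -0.02. The other Bub3 probe sets above the dim level had CtrlGFP differences of 0.27 and 0.24. The other Cenpe probe set had differences between times of -2.59 with Fezf2GFP and -2.08 with CtrlGFP. Why the probe sets of these genes differ was not tested. With the replicate block, 35 genes fell with Fezf2GFP (34 of them shared with the fit without it) and 32 with CtrlGFP (31 shared). With it 0 passed between vectors or for the interaction, and whether the numbers pair the samples is not settled. Of the values of single named genes under alternatives, 3617 kept direction and side of the threshold, 111 fell short of it, 58 passed it and 2 reversed. The number of all genes that passed moved too: over all alternatives it was 50 to 2030 at 24 h, 168 to 550 at 48 h (322 in the fit reported), 630 to 3133 between times with Fezf2GFP (1241) and 797 to 3077 with CtrlGFP (1294), and 0 to 240 for the interaction (10). Median centring left 25 genes below 0 at 24 h and 32 at 48 h, and quantile normalization 31 and 37. With 3 or 4 arrays a group, small differences may go undetected.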
